A study of Mus musculus with 18 samples.

Results

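The transcription factor NF-κB was followed in cultured mouse macrophages through 10 genes, found by their symbols in a table of 25926 genes. They were the subunit genes Nfkb1, Nfkb2, Rela, Relb and Rel, the inhibitor genes Nfkbia, Nfkbib and Nfkbie, the nuclear inhibitor-like gene Nfkbiz, and Tnfaip3, which encodes A20. Each of the 10 symbols had a single row. All 10 passed the filter on low values, a mean of at least 1 FPKM (fragments scaled to transcript length and to the mapped fragments of the sample) over the samples compared.

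Bone marrow-derived macrophages (BMDMs) of C57BL/6 mice were grown for 7 days with 50 ng/mL M-CSF and seeded in Transwell inserts (pore size 0.4 μm) above renal tubular epithelial cells (TECs) from wild-type kidneys. RNA of the BMDMs was sequenced in 3 groups of 6 samples. In the NC group the BMDMs received PBS and the TECs no crystals. In the COM group the BMDMs also received PBS, while the TECs were given calcium oxalate monohydrate (COM) crystals at 100 μg/mL for 24 h. The COM+Met group had the same crystals in the TEC chamber, with BMDMs given 5 mM Met for 24 h, and the labels do not spell Met out. COM against NC asks how macrophages differ when the epithelial cells beneath them meet crystals, and COM+Met against COM asks how the agent changes that state. There was no group with Met and no crystals. Whether the 6 samples in a group are separate mice or cultures is not labelled, and p-values then reflect only how much these samples varied, possibly for technical reasons.

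NF-κB is a family of dimers built from RelA, RelB, c-Rel, p50 and p52, the last pair being cut from the precursors encoded by Nfkb1 and Nfkb2. In resting macrophages the IκB proteins hold the dimers in the cytoplasm. Toll-like, interleukin-1 and TNF receptors activate the IKK kinase, which marks IκB for degradation and frees the dimers, whereas CD40 and the lymphotoxin β receptor also act through the kinase NIK on the Nfkb2 precursor and RelB. Many of the inhibitor genes are themselves switched on by NF-κB, so that the pathway limits its own activity. These are levels of RNA, and they do not measure processing of the precursors, IκB protein or entry into the nucleus.

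Several libraries stood apart from the others of their group. Correlations of log2(FPKM + 1) between samples over 10751 genes were 0.938 to 0.995 among NC, 0.888 to 0.995 among COM and 0.989 to 0.995 among COM+Met libraries. COM-4 and COM-5 correlated more with the COM+Met libraries (0.977 to 0.982) than with COM-1 to COM-3 (0.948 to 0.951) or COM-6 (0.930 and 0.935). COM-1 to COM-3 correlated with the COM+Met libraries at 0.947 to 0.951. Results of COM+Met against COM thus rest on COM libraries that were unlike each other. NC-5 and NC-6 were both below NC-1 to NC-4 for 10 of the 10 NF-κB genes, against 27.1% of all genes. COM-6 was below the other 5 COM samples for 7 of the 10 genes and above them for 1, against 49.0% and 21.1% of all genes. COM-4 and COM-5 were both below COM-1 to COM-3 for 2 of the 10 genes and above them for 5, against 58.6% and 15.9% of all genes. COM+Met-1 held the highest COM+Met value for all 10 genes, against 33.1% of 10182 genes. FPKM sums ran from 380731 in COM-6 to 449186 in COM-4, and the read depth is unknown.

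Macrophage markers were abundant in every group. Each of 10 macrophage markers averaged 1 FPKM or more in all groups, and their summed FPKM ran from 11425 to 16011 in NC, from 10916 to 14585 in COM and from 12574 to 17319 in COM+Met. Most of each sum was Lyz2, with means of 11610, 9517 and 12776 FPKM. Other markers shifted in both directions from NC to COM. Adgre1 (112 to 577 FPKM) and Fcgr1 (8.05 to 83.7) were among those that rose, and Mertk (19.0 to 9.93) and Spi1 (210 to 139) among those that fell. The 15 TEC markers summed to 10.97 to 18.4 FPKM in NC, nearly all of it Cdh1, to 0.468 to 1.37 in COM and to 0.0575 to 0.332 in COM+Met, with Umod, Krt18 and Havcr1 at 0 in every sample. The 13 neutrophil markers summed to 539 to 1029 FPKM in NC, 187 to 561 in COM and 86.9 to 145 in COM+Met, led by Mmp8 and S100a8, while Elane, Mpo and Retnlg were at 0 in all COM and COM+Met samples. Not all of them were lower in COM than in NC, with means of 7.93 against 4.33 FPKM for Camp and 12.6 against 9.68 for Csf3r. The 7 lymphocyte markers summed to at most 1.21 FPKM in any sample. The neutrophil sums differed between the groups of each comparison reported here, and their part in the results was not tested.

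The κB element is the DNA sequence that NF-κB dimers bind, and its matches in the promoters of these genes are shown because several of the inhibitors are known targets of the factors they restrain. RefSeq promoter sequences on GRCm38.p6 were matched for 7 of the 10 genes, and Nfkb1, Relb and Nfkbiz had no entry in the table used. The κB consensus was searched on both strands in the 250 bases before each start. Nfkb2 and Tnfaip3 had more than a single start and so more than a single window. The consensus was found for 5 of these 7 genes, Nfkb2, Rel, Nfkbia, Nfkbie and Tnfaip3. Counted by window, it was found in 7 of their 10 windows, against 7.25% of the 32851 windows of the same length in the table. The looser pattern GGGNNNNNCC, which contains every consensus match, was found for 6 of the 7 genes. By window it was found in 9 of the 10, against 45.8% of all windows. Nfkbib held neither pattern in its window, and Rela held only the looser one. The matches stand in capitals in the following stretches, each read 5′ to 3′ on the strand of its gene.
Tnfaip3, chr10:19015516-19015545, minus strand: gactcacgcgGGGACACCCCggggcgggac
Tnfaip3, chr10:19015411-19015440, minus strand: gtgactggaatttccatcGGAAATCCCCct
Rel, chr11:23771042-23771071, minus strand: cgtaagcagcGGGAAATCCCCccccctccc
Nfkbia, chr12:55492657-55492686, minus strand: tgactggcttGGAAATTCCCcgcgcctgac
Nfkbie, chr17:45555584-45555613, plus strand: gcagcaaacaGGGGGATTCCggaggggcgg
Nfkb2, chr19:46304688-46304717, plus strand: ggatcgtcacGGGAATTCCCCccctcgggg
Nfkb2, chr19:46304707-46304736, plus strand: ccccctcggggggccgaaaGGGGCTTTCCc
Nfkb2, chr19:46305449-46305478, plus strand: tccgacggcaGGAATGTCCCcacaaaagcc
Nfkb2, chr19:46305695-46305724, plus strand: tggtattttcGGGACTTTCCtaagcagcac
For Nfkbia, the most abundant inhibitor gene, and Rel, the one that passed the test in COM+Met against COM, the whole windows follow, again with the consensus matches in capitals.
Nfkbia, chr12:55492648-55492897, minus strand: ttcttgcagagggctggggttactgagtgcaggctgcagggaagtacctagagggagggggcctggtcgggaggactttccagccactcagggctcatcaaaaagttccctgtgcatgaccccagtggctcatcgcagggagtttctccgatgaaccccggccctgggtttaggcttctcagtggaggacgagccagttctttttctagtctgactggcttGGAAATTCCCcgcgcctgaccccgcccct
Rel, chr11:23770970-23771219, minus strand: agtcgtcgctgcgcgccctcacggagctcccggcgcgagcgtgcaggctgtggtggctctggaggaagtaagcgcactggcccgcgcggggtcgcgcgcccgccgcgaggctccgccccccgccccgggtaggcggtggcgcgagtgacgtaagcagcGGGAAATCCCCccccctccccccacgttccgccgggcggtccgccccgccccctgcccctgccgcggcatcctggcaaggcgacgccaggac
A match of letters is a description and no binding was measured.

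In COM against NC, 2 of the 10 genes passed the test (limma on log2(FPKM + 1), adjusted p below 0.05 over 10900 genes), and both were inhibitors that rose. Tnfaip3 rose by 1.51 on the log2 scale and Nfkbib by 1.03. Among all genes tested, 12.7% passed as higher and 40.6% as lower, so that 2 of 10 higher is a share near the background. Both genes also changed by at least 2-fold, as did 17.7% of all genes. Only Tnfaip3 had 6 COM values above all 6 NC values, while the groups did not overlap for 38.2% of genes. The median of all genes was -0.27 in this comparison and 0.0048 with median-of-ratios size factors. With those factors the passing genes went from 1382 higher and 4423 lower to 2559 higher and 2579 lower, and 6 of the 10 NF-κB genes passed, all higher.

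Between COM+Met and COM, only Rel passed, and it fell by 0.74 on the log2 scale. Genes that passed made up 5.77% of 10364 as higher and 7.58% as lower. A change of at least 2-fold was called for 2.22% of all genes and for 0 of the 10. The groups did not overlap for 11.2% of all genes and for Rel among the 10. The median of all genes was 0.0033.

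Between COM+Met and NC, 4 genes passed as higher (Nfkb2, Nfkbia, Nfkbib and Tnfaip3) and 2 as lower (Nfkb1 and Rel). Of 10786 genes, 19.3% passed as higher and 55.9% as lower, 19.3% changed by at least 2-fold in either direction, and 57.6% had groups that did not overlap. Of the 10 genes, 3 changed by at least 2-fold and 3 had groups that did not overlap, in both cases Nfkbia, Nfkbib and Tnfaip3. The median of all genes was -0.26, and with size factors the split of all passing genes moved from 2080 higher and 6034 lower to 3878 and 3743. Under that scaling, 5 of the 10 genes passed as higher and 0 as lower. Each group enters 2 of the 3 comparisons, so they are not independent.

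**Figure D1:**
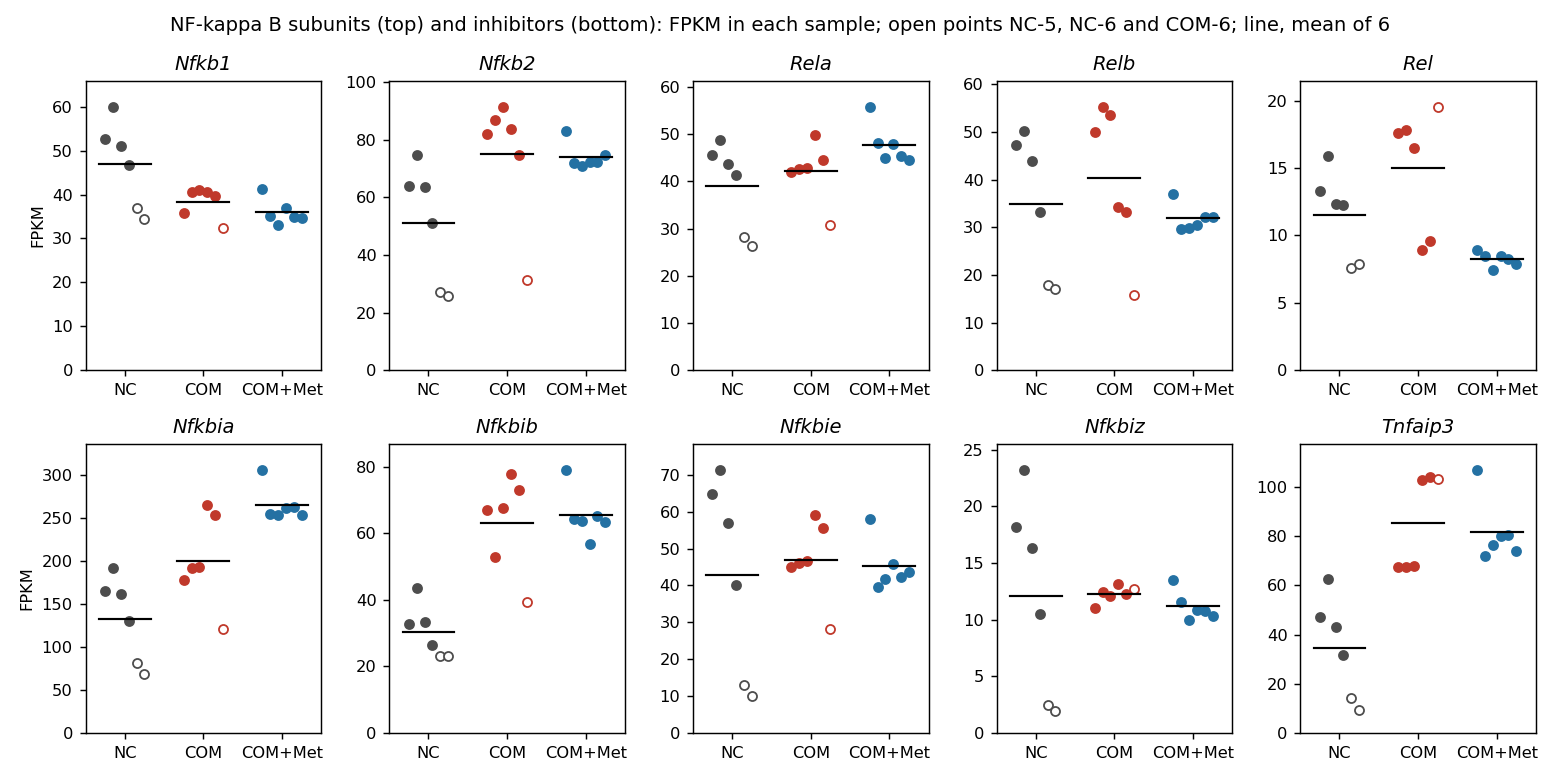
FPKM of the 5 subunit genes (top row) and the 5 inhibitor genes (bottom row) in each of 18 samples, with the group mean as a line and NC-5, NC-6 and COM-6 as open points. The y axes are linear and start at 0. The 6 COM values of Tnfaip3 lie between 67.4 and 104 FPKM, above all NC values, and the 6 COM+Met values of Rel lie between 7.44 and 8.94.

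Nfkbia was the most abundant of the 10 in each group, at a mean of 133 FPKM in NC, 200.2 in COM and 265 in COM+Met. In NC the genes that followed, from Nfkb2 at 51.0 FPKM to Nfkbib at 30.4, overlapped in their sample ranges, and Nfkbiz (12.1) and Rel (11.5) were the least abundant. In COM the order after Nfkbia was Tnfaip3 (85.5), Nfkb2 (74.9) and Nfkbib (63.0), whose ranges overlapped, and in COM+Met it was the same. The lowest 2 genes in COM were Rel (14.98) and Nfkbiz (12.3), with overlapping ranges. In COM+Met they stood the other way round, and every Nfkbiz value, the lowest being 10.0, exceeded the highest Rel value, 8.94. FPKM is scaled to gene length, which is what allows levels of different genes to be set side by side.

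Among the subunits, Nfkb1 (chr3:135584655-135691547, minus strand, GRCm38, as for the positions that follow) encodes p105, the precursor of p50. Its lowest, median and highest values were 34.4, 48.9 and 59.9 FPKM in NC, 32.3, 40.0 and 41.0 in COM and 33.1, 35.1 and 41.2 in COM+Met. The ranges overlapped in each comparison. COM against NC gave a log2 difference of -0.27 (SE 0.14, adjusted p = 0.12), or 0.0044 from the median of all genes. Against NC, Nfkb1 was lower in COM+Met by a log2 difference of -0.35 (SE 0.12, adjusted p = 0.0182), or -0.089 from the median of all genes, and this call was lost with size factors (-0.043, adjusted p = 0.764) and with quantile normalisation (-0.23, adjusted p = 0.105). Without NC-5 and NC-6, Nfkb1 passed as lower in COM too, at -0.45 (adjusted p = 0.00881), and it did so without NC-6 alone, at -0.35 (adjusted p = 0.0415).

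Nfkb2 (chr19:46304320-46312385, plus strand) encodes p100, which holds RelB inactive until it is cut to p52. NC values were 25.7, 57.2 and 74.5 FPKM (lowest, median, highest), COM values 31.4, 82.8 and 91.2, and COM+Met values 70.7, 72.1 and 83.0. In COM, 5 of 6 samples exceeded every NC sample and COM-6, at 31.4, did not. The log2 difference of 0.58 (SE 0.32) did not pass (adjusted p = 0.14), and without COM-6 it was 0.81 and passed (adjusted p = 0.0207). COM+Met exceeded NC by 0.64 (SE 0.24, adjusted p = 0.028), with 6 of 6 samples above the NC median and 2 above every NC sample. Without NC-5 the adjusted p was 0.0564, without NC-6 it was 0.0507 and without COM+Met-1 it was 0.0538. Nfkb2 overlaps Psd on the opposite strand by 299 bases, and Psd was at 0.752 to 3.72 FPKM.

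Rela (chr19:5637483-5648130, plus strand) encodes p65, the subunit that carries most of the transactivation in the classical pathway. Its lowest, median and highest FPKM were 26.3, 42.6 and 48.7 in NC, 30.7, 42.8 and 49.9 in COM and 44.6, 46.7 and 55.7 in COM+Met. The medians of NC and COM lay close together. Its log2 difference was 0.13 (SE 0.17, 95% interval -0.24 to 0.50) in COM against NC and 0.19 (SE 0.11, -0.048 to 0.43) in COM+Met against COM, neither of which passed. COM+Met against NC gave 0.32 (SE 0.14, adjusted p = 0.0585), which passed with size factors (0.63, adjusted p = 0.00159) and with quantile normalisation (0.43, adjusted p = 0.0191). It also passed without NC-1 (adjusted p = 0.0392), NC-2 (0.0247) or NC-3 (0.0493).

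Relb (chr7:19606217-19629438, minus strand) encodes the partner of p52. The NC range was 16.96 to 50.3 FPKM with a median of 38.6, the COM range 15.8 to 55.2 with a median of 42.1, and the COM+Met range 29.7 to 36.9 with a median of 31.3. COM samples fell into separate levels, with 50.0, 55.2 and 53.6 FPKM in COM-1 to COM-3, 34.2 and 33.2 in COM-4 and COM-5, and 15.8 in COM-6. The log2 difference of COM+Met from COM was -0.22 (SE 0.25, adjusted p = 0.592, 95% interval -0.76 to 0.32), and it passed without COM-6 (-0.46, adjusted p = 0.0284) and with sample weights (-0.72, adjusted p = 9.88e-07). Against NC, Relb did not pass in COM (0.21, adjusted p = 0.618) or in COM+Met (-0.012, adjusted p = 0.968), the latter passing as lower with sample weights (-0.44, adjusted p = 0.00408) and without NC-5 and NC-6 (-0.43, adjusted p = 0.00165).

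Rel (chr11:23736847-23770970, minus strand) encodes c-Rel, a subunit found mainly in blood cells. COM values were 17.6, 17.8 and 16.5 FPKM in COM-1 to COM-3, 8.95 and 9.55 in COM-4 and COM-5, and 19.5 in COM-6. NC values were 13.3, 15.9, 12.3, 12.2, 7.55 and 7.91 (NC-1 through NC-6). COM+Met values were 8.94, 8.50, 7.44, 8.51, 8.22 and 7.85. All 6 COM+Met values lay below all COM values, with 8.94 and 8.95 FPKM as the neighbours across that gap, so COM-4 and COM-5 nearly met the COM+Met group. The mean fell from 14.98 ± 4.55 FPKM (SD, n = 6) in COM to 8.24 ± 0.532 in COM+Met, a log2 difference of -0.74 (SE 0.18, limma adjusted p = 0.016). The two-sided exact permutation test over all 924 ways to divide the 12 samples gave p = 0.00216, the smallest it can give. Without COM-1, COM-2 and COM-3 the difference was -0.48 and did not pass (adjusted p = 0.103), and without COM-4, COM-5 and COM-6 it was -0.99 (adjusted p = 8.02e-08).

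COM against NC gave 0.34 for Rel (SE 0.23, adjusted p = 0.224), with 4 of 6 COM samples above every NC sample. COM+Met fell below NC by a log2 difference of -0.40 (SE 0.15, adjusted p = 0.0276), or -0.14 from the median of all genes. That call was lost with size factors (-0.11, adjusted p = 0.51), with quantile normalisation (-0.12, adjusted p = 0.487) and when any of NC-1 (adjusted p = 0.0594), NC-2 (0.0579), NC-3 (0.0537), NC-4 (0.0545), COM+Met-3 (0.0552) or COM+Met-6 (0.05002) was left out.

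**Figure D2:**
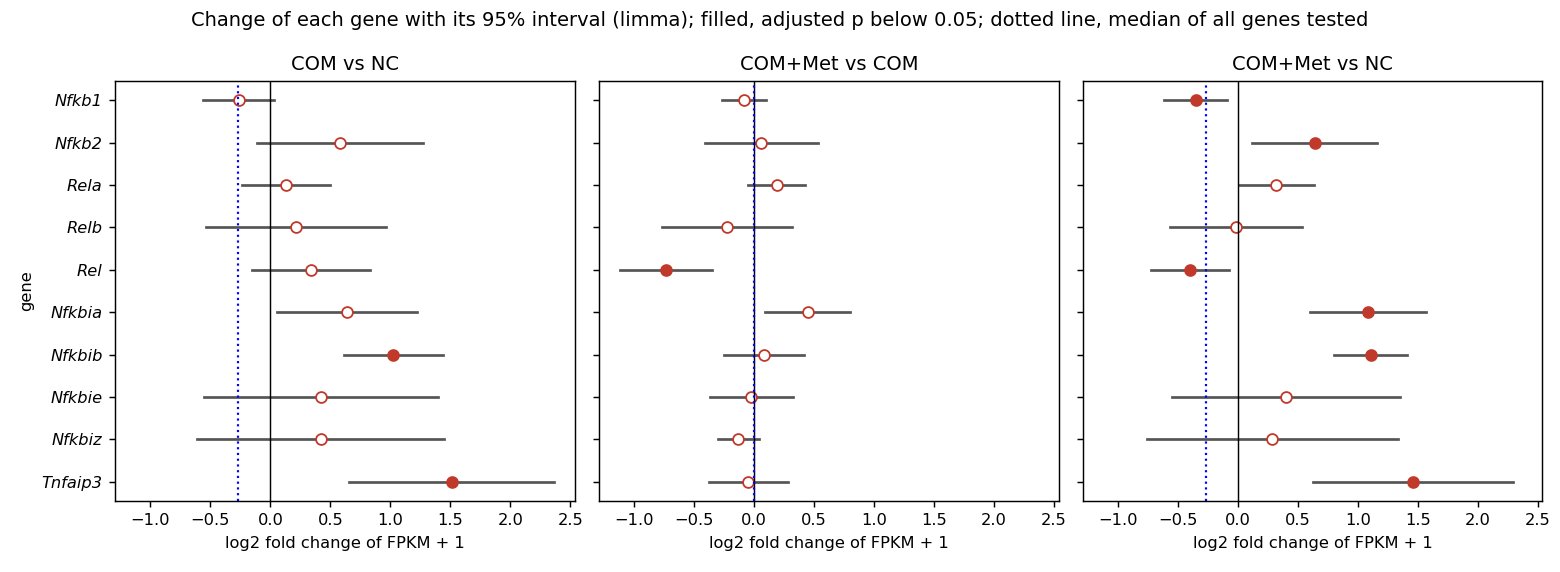
Log2 fold change of FPKM + 1 for each gene (points) with its 95% interval from limma (lines) in the 3 comparisons, filled where the adjusted p was below 0.05. The dotted line is the median of all genes tested, at -0.27, 0.0033 and -0.26. Tnfaip3 and Nfkbib are filled in the left panel, Rel alone in the middle and 6 genes in the right panel.

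Of the classical inhibitors, Nfkbia (chr12:55489410-55492647, minus strand) encodes IκBα, the quickly resynthesised inhibitor that ends a pulse of NF-κB activity. NC values were 68.2, 146 and 191 FPKM (lowest, median, highest), COM values 121, 192 and 265, and COM+Met values 253, 258 and 306. The COM+Met samples all lay above every NC sample. COM+Met exceeded NC by 1.08 on the log2 scale (SE 0.22, adjusted p = 0.000687), from 133 ± 49.3 to 265 ± 20.4 FPKM (SD, n = 6). COM lay between, 0.64 above NC (SE 0.27, adjusted p = 0.0624, exact permutation p = 0.0498 unadjusted) and 0.45 below COM+Met in the other comparison (SE 0.16, adjusted p = 0.0931, exact permutation p = 0.0346 unadjusted). The COM samples were uneven, with 265 and 253 FPKM in COM-4 and COM-5, within the COM+Met range, 177 to 193 in COM-1 to COM-3 and 121 in COM-6. The step from NC to COM passed without COM-6 (0.77, adjusted p = 0.0237), without NC-2 (0.76, adjusted p = 0.0345) and with size factors (0.96, adjusted p = 0.0115), and was 0.27 without NC-5 and NC-6 (adjusted p = 0.317). The step from COM to COM+Met passed without COM-4 (0.54, adjusted p = 0.0362) and without COM-5 (0.52, adjusted p = 0.0487).

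Nfkbib (chr7:28758251-28767512, minus strand) encodes IκBβ, which is lost and replaced more slowly than IκBα. Its NC values ran from 23.3 to 43.6 FPKM (median 29.5), its COM values from 39.4 to 77.8 (median 67.3) and its COM+Met values from 56.9 to 79.0 (median 64.0). All COM samples but COM-6, at 39.4, exceeded every NC sample, and so did all COM+Met samples. Nfkbib rose by 1.03 in COM against NC (SE 0.19, adjusted p = 0.000736, exact permutation p = 0.00433) and by 1.11 in COM+Met against NC (SE 0.14, adjusted p = 1.03e-05). COM+Met against COM gave 0.082 (SE 0.15, 95% interval -0.25 to 0.41). The COM rise remained past the test in each run that left out a single sample and was 0.86 without NC-5 and NC-6 (adjusted p = 0.00644). Nfkbib overlaps Sirt2 on the opposite strand by 778 bases, and no source used here says that strand was counted, so reads from the shared stretch cannot be told apart. Sirt2 averaged 69.1 ± 2.76 FPKM in NC, 49.4 ± 5.09 in COM and 56.4 ± 4.74 in COM+Met (SD, n = 6), the reverse order of NC and COM to that of Nfkbib.

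Nfkbie (chr17:45555703-45563169, plus strand) encodes IκBε. The NC samples ranged from 10.1 to 71.3 FPKM (median 48.5), the COM samples from 28.1 to 59.0 (median 46.4) and the COM+Met samples from 39.7 to 58.1 (median 43.0). NC-5 and NC-6, at 13.0 and 10.1, lay far below NC-4, the next lowest at 40.2. No comparison passed, at 0.42 (SE 0.45, adjusted p = 0.442), -0.022 (SE 0.16, adjusted p = 0.944) and 0.40 (SE 0.44, adjusted p = 0.42) for COM against NC, COM+Met against COM and COM+Met against NC. Without NC-5 and NC-6, COM+Met against NC turned to -0.34 and passed as lower (adjusted p = 0.046).

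Nfkbiz (chr16:55811375-55838899, minus strand) encodes IκBζ, which acts in the nucleus and is needed for a secondary set of target genes such as Il6. NC values were 18.1, 23.2, 16.3, 10.5, 2.48 and 1.96 FPKM (NC-1 through NC-6), and the COM samples stayed within 11.1 to 13.2 and COM+Met values within 10.0 to 13.5. The NC samples thus lay on both sides of the other groups. COM against NC gave 0.42 (SE 0.48, adjusted p = 0.471), and the group means in FPKM were 12.1 ± 8.67 and 12.3 ± 0.708 (SD, n = 6). Without NC-5 and NC-6 it turned to -0.39 (adjusted p = 0.0883), and COM+Met against NC turned from 0.29 to -0.52 and passed as lower (adjusted p = 0.00945).

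Tnfaip3 (chr10:19000910-19015657, minus strand) encodes A20, a ubiquitin-editing enzyme that stops signals from TNF and Toll-like receptors upstream of IKK. NC values were 47.2, 62.8, 43.3, 31.6, 14.0 and 9.36 FPKM (NC-1 through NC-6). COM-1 to COM-3 stood at 67.6, 67.4 and 68.1, and COM-4 to COM-6 at 103, 104 and 103. COM+Met values ran from 71.8 to 107 with a median of 78.3. No COM or COM+Met sample fell within the NC range, and the COM samples formed a lower and an upper level with the COM+Met samples mostly between them. Tnfaip3 rose from 34.7 ± 20.5 FPKM in NC to 85.5 ± 19.5 in COM (SD, n = 6), by 1.51 on the log2 scale (SE 0.40, limma adjusted p = 0.00649, exact permutation p = 0.00216). COM+Met was higher than NC by 1.46 (SE 0.38, adjusted p = 0.00387) and differed from COM by -0.048 (SE 0.15, 95% interval -0.38 to 0.28). The rise in COM was 0.88 without NC-5 and NC-6 (adjusted p = 0.00738), and without COM-4, COM-5 and COM-6 it was 1.21 and did not pass (adjusted p = 0.0837).

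**Figure D3:**
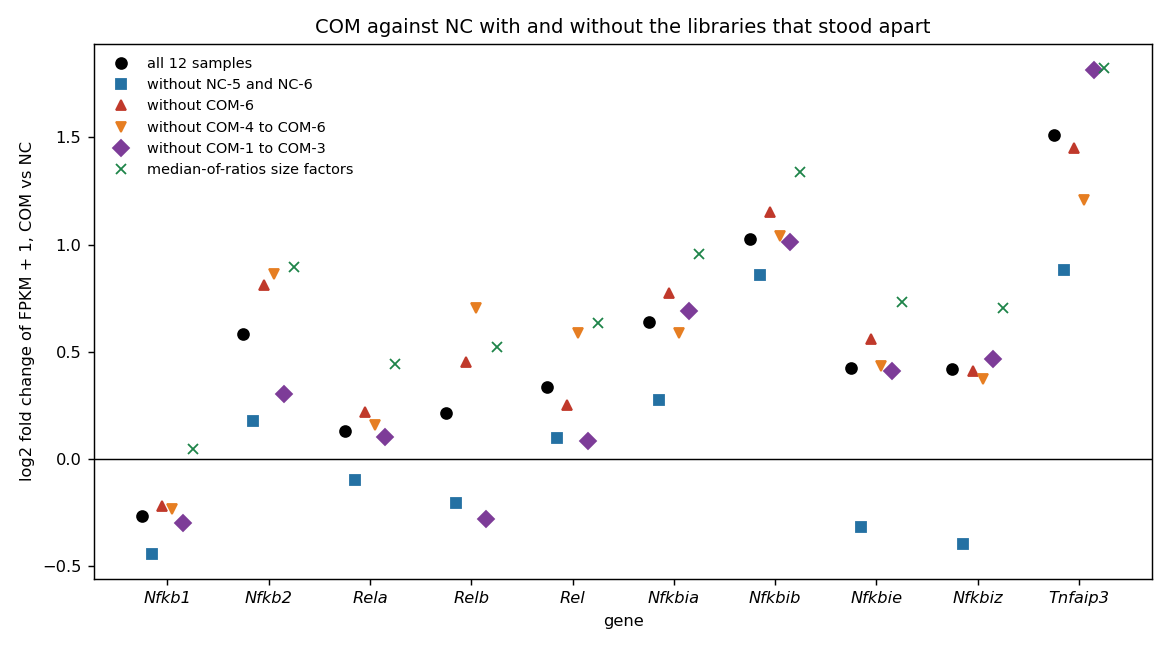
Log2 fold change of FPKM + 1 in COM against NC for each gene with all 12 samples, without named samples and with median-of-ratios size factors. Without NC-5 and NC-6, Rela, Relb, Nfkbie and Nfkbiz turn negative, while Nfkbib and Tnfaip3 stay above 0 in every setting drawn, at 0.86 and 0.88 without those samples.

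With NC-5 and NC-6 left out, 3 of the 10 genes passed in COM against NC, Nfkbib and Tnfaip3 as higher and Nfkb1 as lower, beside 1156 genes higher and 3502 lower of 10829 tested. With COM-6 left out as well, a setting chosen after the values had been seen, 5 passed, Nfkb2 (0.41, adjusted p = 0.0101) and Nfkbia (0.41, adjusted p = 0.0444) joining the higher ones, beside 1564 higher and 4370 lower of 10861. Without NC-5 and NC-6, COM+Met against NC had 9 of 10 genes that passed, 4 higher and 5 lower, where 8208 of 10705 genes passed, 2178 higher and 6030 lower. The lower ones were Nfkb1, Relb, Rel, Nfkbie and Nfkbiz, and the higher ones Nfkb2, Nfkbia, Nfkbib and Tnfaip3. A total of 30 exact permutation tests were run on single genes, 10 of which gave an unadjusted p below 0.05.

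Ratios within a sample do not depend on its scaling and showed how the members shifted against each other. The ratio of Nfkb2 to Nfkb1, the genes of both precursors, had a mean of 1.05 ± 0.243 in NC, 1.93 ± 0.488 in COM and 2.06 ± 0.0742 in COM+Met (SD, n = 6). It ran from 1.89 to 2.29 in COM-1 to COM-5 and was 0.972 in COM-6, within the NC range of 0.734 to 1.25, and every COM+Met sample lay above that range. Relb to Rela, by contrast, overlapped between the groups in each of the 3 comparisons. It averaged 0.861 ± 0.191 in NC, 0.946 ± 0.337 in COM and 0.668 ± 0.0409 in COM+Met (SD, n = 6). All ratios given here and in the following paragraphs are descriptions and were not tested.

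Rel to Rela averaged 0.294 in NC, with a narrow range of 0.267 to 0.326. It spread from 0.179 to 0.635 in COM and from 0.160 to 0.181 in COM+Met, where every sample was below every NC sample. COM-4, at 0.179, lay within the COM+Met range, and COM-6 gave the highest value, 0.635. As a share of the summed FPKM of the 5 subunits, Rel held 6.37% in NC, 7.61% in COM and 4.17% in COM+Met on average. Nfkb2 went from 27.0% in NC to 34.8% in COM and 37.4% in COM+Met, and Nfkb1 from 26.5% to 18.7% and 18.2%.

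Nfkbia to Rela, the main inhibitor against the main transactivating subunit, averaged 3.31 in NC, 4.69 in COM and 5.55 in COM+Met. Every COM and COM+Met sample exceeded every NC sample, by a small margin for COM-6, at 3.95 against 3.93 in NC-2. The summed FPKM of Nfkbia, Nfkbib and Nfkbie over that of the 5 subunits was 1.09 ± 0.122 in NC, 1.49 ± 0.311 in COM and 1.90 ± 0.0463 in COM+Met (SD, n = 6). Within the inhibitors, Tnfaip3 to Nfkbia ran from 0.137 to 0.328 in NC, from 0.352 to 0.853 in COM and from 0.282 to 0.350 in COM+Met, so that COM lay above both other groups without overlap, COM-6 being highest. Nfkbib, Nfkbie and Nfkbiz relative to Nfkbia were all lower in COM+Met than in COM without overlap, with mean ratios 0.773, 0.723 and 0.643 times those of COM. These ratios and Tnfaip3 to Nfkbia share Nfkbia as denominator, so they are not separate results. Nfkbia itself was 0.45 higher in COM+Met than in COM on the log2 scale (limma adjusted p = 0.0931). Nfkbib, Nfkbie, Nfkbiz and Tnfaip3 differed by 0.082, -0.022, -0.13 and -0.048, and none of them passed. No share of non-overlapping ratios over all genes was computed.

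**Figure D4:**
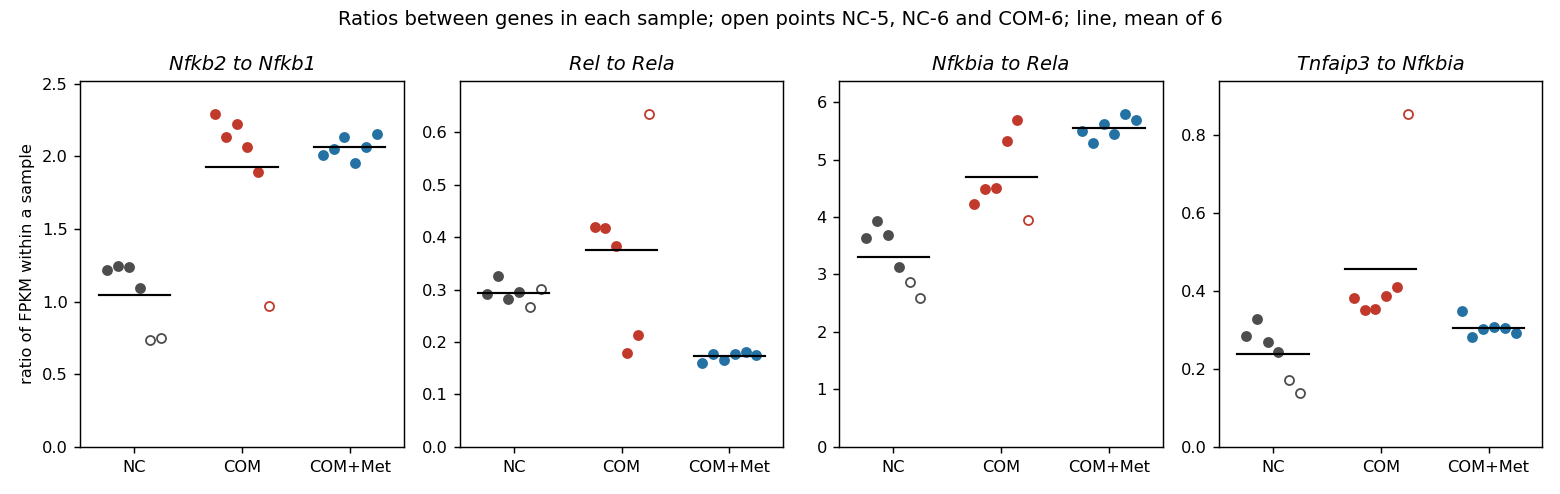
Ratios of FPKM within each sample for 4 pairs of genes, with the group mean as a line and NC-5, NC-6 and COM-6 as open points. Nfkbia to Rela is higher in every COM and COM+Met sample than in any NC sample, and Rel to Rela ranges from 0.160 to 0.181 in COM+Met.

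The genes around these 10 were counted from lists of the pathway. Of all genes tested, 12.7% passed as higher and 40.6% as lower in COM against NC. These shares were 5.77% and 7.58% in COM+Met against COM, and 19.3% and 55.9% in COM+Met against NC. The alternative settings reported for the 10 genes were not run for single genes of the lists. Of 28 upstream kinases, adaptors and receptors, 10 passed as higher and 6 as lower in COM against NC, with a median log2 change of 0.12 against -0.27 for all genes. Cd40, a receptor of the alternative route, rose by 3.71 (3.44 ± 2.88 to 51.6 ± 28.9 FPKM, SD, n = 6). Irak3, an inhibitory member of the IRAK family, rose by 1.28, and Tnfrsf1b, TNF receptor 2, by 0.98. The largest falls were those of Ltbr (-0.62), the lymphotoxin β receptor, Tnfrsf1a (-0.61), TNF receptor 1, and Irak4 (-0.45), a kinase below MyD88. Between COM+Met and COM, 1 of 28 passed as higher, Cd40 (1.00), and 2 as lower, Irak3 (-0.74) and Map3k8 (-0.32), a kinase kept inactive by p105. Their limma adjusted p-values were 0.036, 0.00577 and 0.0224. Against NC, COM+Met had 10 genes past the test as higher, led by Cd40 (4.71), Tnfrsf1b (1.17) and Ikbke (0.86), and 12 as lower, led by Map3k8 (-0.75), Tnfrsf1a (-0.70) and Tab1 (-0.65).

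Of 21 other regulators, most of them inhibitory, 5 passed as higher and 3 as lower in COM against NC (median 0.084). The shares of all genes were 12.7% and 40.6%. Usp18, which removes ISG15 and is itself an interferon-induced gene, rose by 4.38, Peli1, a ubiquitin ligase, by 1.11 and Tnip1, a partner of A20, by 0.87. The falls were Nlrc3 (-1.37), Nfkbid (-0.80), which encodes another nuclear IκB-like protein, and Otulin (-0.72), which removes linear ubiquitin chains. In COM+Met against COM only N4bp1 (-0.56) passed. COM+Met against NC had 7 higher, led by Usp18 (4.99), Rnf31 (1.12) and Tnip1 (0.86), and 7 lower, led by Nlrc3 (-1.21), Nlrx1 (-1.04) and Nfkbid (-0.92). Of all genes in that comparison, 19.3% passed as higher and 55.9% as lower. The counts of this list do not separate inhibitory genes from the others, so a rise, such as that of Rnf31, need not be that of an inhibitor.

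Of 33 known NF-κB target genes, 32 were tested and Il23a was below the filter. In COM against NC, 18 passed as higher and 0 as lower, with a median of 1.23, against 12.7% and 40.6% of all genes. The largest rise was that of the chemokine Ccl5 (9.12, from 8.81 ± 4.59 to 5866 ± 3937 FPKM, SD, n = 6). The acute-phase gene Saa3 (7.74) and Il12b (5.65), which encodes the p40 chain of IL-12, came next. Against NC, COM+Met had 25 that passed as higher and 0 as lower, with a median of 1.81, against 19.3% and 55.9% of all genes. Again Ccl5 (9.82), Saa3 (8.31) and Il12b (5.04) were in front. Several of these genes also answer to interferons or other signals, and the list was chosen with results of these data known. From COM to COM+Met, 5 passed as higher and 4 as lower, against 5.77% and 7.58% of all genes. Tnf (1.33, from 193 to 410 FPKM), Plau (1.06), which encodes urokinase, and Irf1 (0.72) rose, while Mmp9 (-2.06), Il1b (-1.64, from 535 to 170 FPKM) and Ccl22 (-0.82) fell. Their limma adjusted p-values were 0.0226, 0.0043, 0.0452, 0.0399, 5.61e-06 and 0.0411, in that order. The COM values spread widely for some of them, at 193 ± 120 FPKM for Tnf and 32.6 ± 28.8 for Mmp9 (SD, n = 6). For Il1b they were 535 ± 67.8. The target list therefore held changes in both directions in the comparison in which Rel was the only one of the 10 genes to pass.

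**Figure D5:**
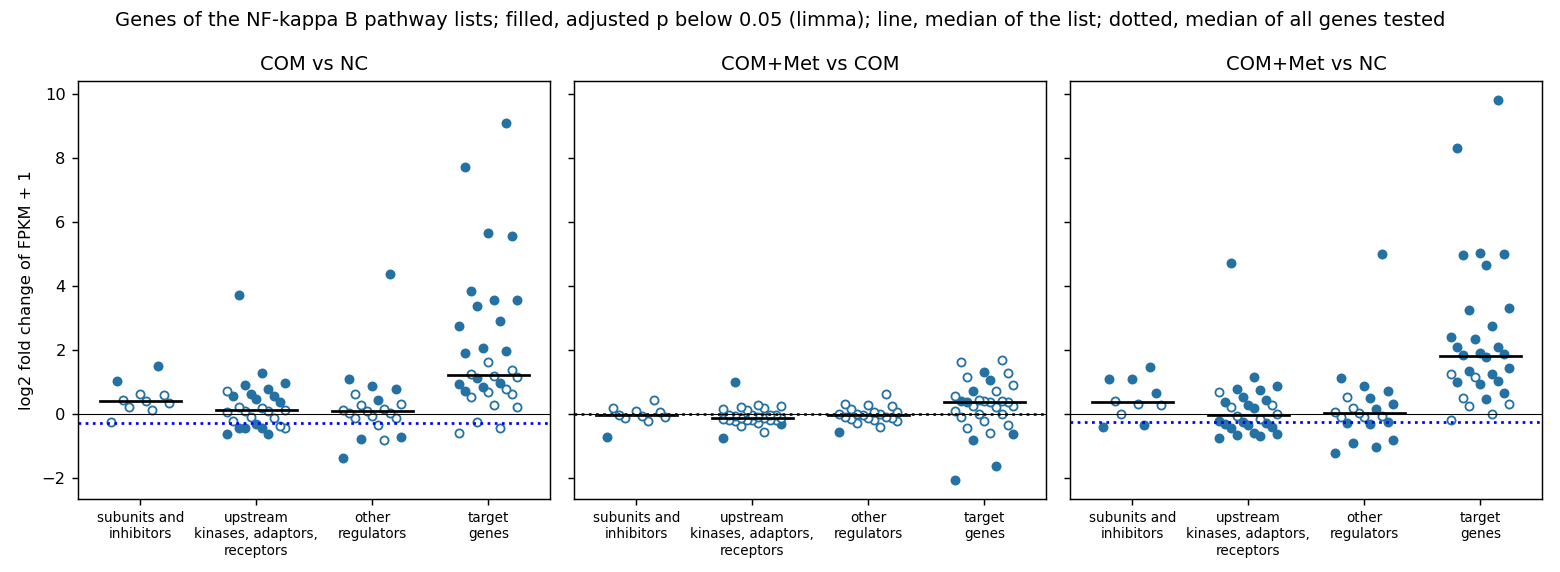
Log2 fold change of FPKM + 1 for the 10 genes and for 3 lists of pathway genes in each comparison, filled where the adjusted p was below 0.05, with the median of each list as a line and that of all genes tested as a dotted line. The target genes reach 9.12 in COM against NC and 9.82 in COM+Met against NC, where none passed as lower, and lie on both sides of 0 in COM+Met against COM.

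For each of the 10 genes, the closest patterns over the 18 samples were those with the smallest root mean square difference of centred log2(FPKM + 1) among 10751 genes. The SD of these values within a gene ran from 0.24 for Nfkb1 to 0.91 for Tnfaip3. A gene that varies little gives small differences, so the values cannot be ranked between the 10 genes. Nfkb1 was closest to Myd88 (0.11), the adaptor of Toll-like receptors, and Taf10 (0.13). Nfkb2 was closest to Bcl3 (0.16), an IκB-like partner of p50 and p52, and to the kinase gene Pim3 (0.16). Rela was closest to Traf3 (0.087), which restrains NIK, and Susd6 (0.11). Relb was nearest to Zswim4 (0.12) and the zinc transporter gene Slc39a14 (0.19), and Rel to Nrg1 (0.19) and Dennd4a (0.19).

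Among the inhibitors, Nfkbia was nearest to Fam20c (0.16) and Ppp1r15a (0.18), and Nfkbib to Fbxw17 (0.16) and Bcl2a1b (0.17), an anti-apoptotic gene with close copies among which reads can be split. Nfkbie and Nfkbiz were each closest to Ets2 (0.20 for both) and next to each other (0.23). Tnfaip3 was nearest to Mcoln2 (0.21) and Met (0.25), the gene of the hepatocyte growth factor receptor and not the agent. The likeness covers differences between groups and between libraries of a group alike. Since these are bulk samples, fewer cells expressing a gene and less RNA of it per cell cannot be told apart.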

How the data were processed

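RNA-seq of 18 BMDM samples was used, 6 each of NC, COM and COM+Met, grouped by their labels. The authors deposited FPKM values for 25926 genes, made from TruSeq libraries of total RNA. Per the submitters' processing notes, Bowtie 0.12.2 was among the tools, and mm8 and mm9 were the genome builds, with no role stated. The quantifier, its annotation and any strand setting: not given in the sources used here. All sample columns were used (0 left out). Positions came from GENCODE M21 on GRCm38, in which 22022 of 22036 Ensembl identifiers were found. Depth is unknown: among pairs of samples of a group (45), the commonest ratio of genes below 0.5 FPKM was shared by 0.0914% to 0.238% of them, so whole reads could not be recovered and no counting interval is given. FPKM is scaled to the mapped fragments of each sample, so a gene can fall when abundant genes rise.

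Values were taken as log2(FPKM + 1), with a pseudocount of 1, which understates changes of low genes. Genes averaging 1 FPKM or more in the 12 samples of a comparison entered limma 3.58.1 (eBayes with a trend, R 4.3.3), and their p-values were adjusted together by the Benjamini-Hochberg method. Exact two-sided permutation tests used Python 3.11.15, pandas 2.3.3, numpy 2.4.6 and scipy 1.17.1, and plots matplotlib 3.10.9. The limma procedure was tested on simulated data with noise independent between genes and samples. That simulation held no libraries that stood apart, so it does not cover this feature of the data. The genes named were the 10, the 3 largest rises and 3 largest falls that passed in each list and comparison, and the 2 nearest patterns of each gene. Genes, lists and tests were chosen with earlier results of these data known. The alternatives were other pseudocounts, filters and scalings, the replicate number as a block, a fit of all 18 samples, sample weights, and the removal of samples singly and in sets. They were run for the 10 genes and for the counts of all genes passing, not for single genes of the lists.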

Additional observations from a re-analysis of the deposited data

Results flagged for a closer look

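In groups of 6, a sample was singled out where its gap to the nearest other sample relative to the group's range exceeded Dixon's 95% critical value, which chance passes in about 1 in 20 groups. Of 30 gene and group pairs, 7 were singled out. In COM, COM-6 was lowest for Nfkb2 at 31.4 FPKM. In COM+Met, COM+Met-1 was highest for Nfkb2 at 83.0 FPKM, Rela at 55.7, Relb at 36.9, Nfkbia at 306, Nfkbie at 58.1 and Tnfaip3 at 107. COM+Met-1 was singled out in the same way for 4.81% of 10182 genes.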

How the results depend on the processing

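Of the changes of single genes, 634 of 730 alternative values kept their direction and their side of the threshold.

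The number of the 10 genes passing in COM against NC (2) was 6 with size factors, 4 with quantile normalisation, 5 with sample weights, 5 without NC-5, NC-6 and COM-6 (added after seeing the data; all genes in these settings 5138, 5239, 7238 and 5934, against 5805), and 2 to 4 when single samples were left out, the 4 being without COM-6. In COM+Met against COM (1) it was 2 with quantile normalisation, 7 with sample weights, 5 without COM-4, COM-5 and COM-6, 1 to 2 when single samples were left out and 0 (limma, with 2 at an unadjusted p below 0.05) without COM-1, COM-2 and COM-3. All genes passing in that comparison (1384) became 1882 with quantile normalisation, 6680 with sample weights, 6349 without COM-4, COM-5 and COM-6, 2439 without COM-1, COM-2 and COM-3, and 943 to 2753 when single samples were left out, the 2753 being without COM-6. Deviations of same-numbered samples from their group means correlated at -0.222 to 0.0569. Libraries that stood apart weigh on these values, so they cannot settle whether the numbers pair samples, which the labels do not say. In COM against NC, the replicate block lowered the SE of Relb from 0.35 to 0.14. That of Nfkb2 went from 0.32 to 0.17, and only that of Tnfaip3 rose, from 0.40 to 0.44. With the replicate number as a block, 4 of the 10 genes passed in COM against NC, 1 in COM+Met against COM and 7 in COM+Met against NC, beside 5245, 744 and 7893 of all genes.

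Directions that turned follow, as log2 differences. In COM against NC, Nfkb1 was 0.048 with size factors. With sample weights, Rela was -0.030, Nfkbie -0.22 and Nfkbiz -0.34. Without NC-5 and NC-6, Rela was -0.100, Relb -0.21, Nfkbie -0.32 and Nfkbiz -0.39, and with COM-6 left out too Rela was -0.014, Nfkbie -0.18 and Nfkbiz -0.40. Without COM-1, COM-2 and COM-3, Relb was -0.28. In COM+Met against COM, Nfkbie was 0.0028 with quantile normalisation. Nfkb2 was -0.24 with sample weights and -0.22 without COM-4, COM-5 and COM-6, settings in which Nfkb2 passed, and Tnfaip3 was 0.19 and 0.25. Relb was 0.27 without COM-1, COM-2 and COM-3. In COM+Met against NC, Relb was 0.29 with size factors and 0.15 with quantile normalisation, Nfkbie was -0.32 and Nfkbiz -0.49 with sample weights, and -0.34 and -0.52 without NC-5 and NC-6. Single samples left out gave, in COM+Met against COM, ranges of -0.17 to 0.13 for Nfkb2, -0.044 to 0.15 for Nfkbib, -0.16 to 0.051 for Nfkbie and -0.13 to 0.014 for Tnfaip3, and in COM+Met against NC -0.19 to 0.11 for Relb and -0.060 to 0.55 for Nfkbiz. The cause of these shifts was not tested. FPKM values carry no depth, so the precision of low values is unknown.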
